A study of Homo sapiens with 6 samples.

Results

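AMP-activated protein kinase (AMPK) and the kinases that switch it on were followed at the RNA level in DND41, a line from human T-cell acute lymphoblastic leukaemia, after exposure to MB1-47 or DMSO. The 10 genes were chosen by name. They are the catalytic α subunits PRKAA1 and PRKAA2, the scaffolding β subunits PRKAB1 and PRKAB2, the nucleotide-binding γ subunits PRKAG1 and PRKAG2, the upstream kinase STK11 (the LKB1 protein) with its partners STRADA and CAB39, and the calcium-dependent upstream kinase CAMKK2. Members with a mean of at least 10 normalized counts over the 6 libraries were kept, which left 9 of the 10. The table held 17202 genes, and 13465 of them reached that mean. The member nearest to the threshold was PRKAG2, kept with a mean of 11.9, and the member left out was PRKAA2, with a mean of 2.13. The filter did not use the difference between the groups. The members and lists were, however, chosen with earlier results of these data known.

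The MB1-47 group held 3 libraries of DND41 cells treated for 24 h with MB1-47, a compound that the series title describes as an uncoupler of mitochondria. The labels give its dose as 4 mM, and that unit is repeated as written and was not checked. The DMSO group held 3 libraries of the same line given only that solvent for the same time, and both groups grew in RPMI with 10% serum. All cells came from a single line plated in triplicate, and the labels do not say that the wells were separate cultures, so the p-values cover only the scatter of these libraries, some of it perhaps technical.

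AMPK is a trimer of 1 α, 1 β and 1 γ subunit that senses falling energy. When AMP and ADP replace ATP on the γ subunit, the α subunit is more readily phosphorylated on its activation loop, mainly by LKB1, which works in a complex with a STRAD pseudokinase and a MO25 scaffold. CAMKK2 phosphorylates the same site when calcium-loaded calmodulin binds it. In T cells the catalytic subunit encoded by PRKAA1 is the main form, and mitochondrial uncouplers are known activators of AMPK. That activation is a matter of nucleotides and phosphorylation, neither of which RNA values measure.

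Deposited values summed to between 28323700 and 29673900 per MB1-47 library and between 30788200 and 32667500 per DMSO library. These sums are not depths, and the depth behind each value is unknown. DMSO replicate 1 stood apart from the other DMSO libraries on the second principal component (18.5% of the variance). Of 13 T-lineage markers, 12 were analysed and 10 averaged at least 100 normalized counts, among them CD3E and CD7, while CD2 (mean 41.5) and CD5 (mean 13.5) were low. The summed T-lineage level ran from 35404 to 39523 in MB1-47 libraries and from 54820 to 58357 in DMSO libraries. By the limma test below, 4 of the 12 were lower (CD3D, CD3G, CD7 and LCK), 1 was higher (BCL11B) and 7 did not pass. Over all genes tested, 19.8% were lower and 18.3% higher. Summed myeloid markers did not exceed 22.9 and summed erythroid markers did not exceed 36.5 in any library. Of 5 B-lineage markers CD79A alone was high, and its list summed to between 6427 and 7124 in MB1-47 libraries and between 15969 and 17118 in DMSO libraries. Of 6 stromal and epithelial markers only PDGFRB averaged at least 100, and that list summed to between 986 and 1256 in MB1-47 libraries and between 1466 and 1836 in DMSO libraries. The part of these marker levels in the results was not tested. In bulk RNA, fewer cells of a kind and less RNA per cell cannot be told apart.

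The RNA of CAMKK2 fell with MB1-47 and the RNAs of PRKAG1 and PRKAB2 rose, while the catalytic subunit PRKAA1 and the LKB1 kinase STK11 did not pass the test. All changes below compare MB1-47 with DMSO as a log2 fold change on the log2(value + 1) scale, with a standard error, and a gene is called when its limma p-value, adjusted by the Benjamini-Hochberg method over all genes tested, is under 0.05. Of the 9 members tested, 2 were higher, 1 was lower and 6 did not pass. Over all 13465 genes tested, 38.1% passed, 18.3% higher and 19.8% lower, so 3 of 9 members is close to the share found anywhere in the table. The groups did not overlap in 5 of the 9 members, against 49.3% of all genes; 4 of the 5 lay higher, beside 24.1% of all genes, and 1 lower, beside 25.2%. The median change of the 9 members was 0.12, against 0.02 for all genes, and their changes ranged from -0.86 to 0.46. Scaling all libraries to equal totals moved the median of all genes to 0.15, and 5 members were then higher and 1 was lower, beside 24.8% of all genes higher and 15.3% lower.

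**Figure D1:**
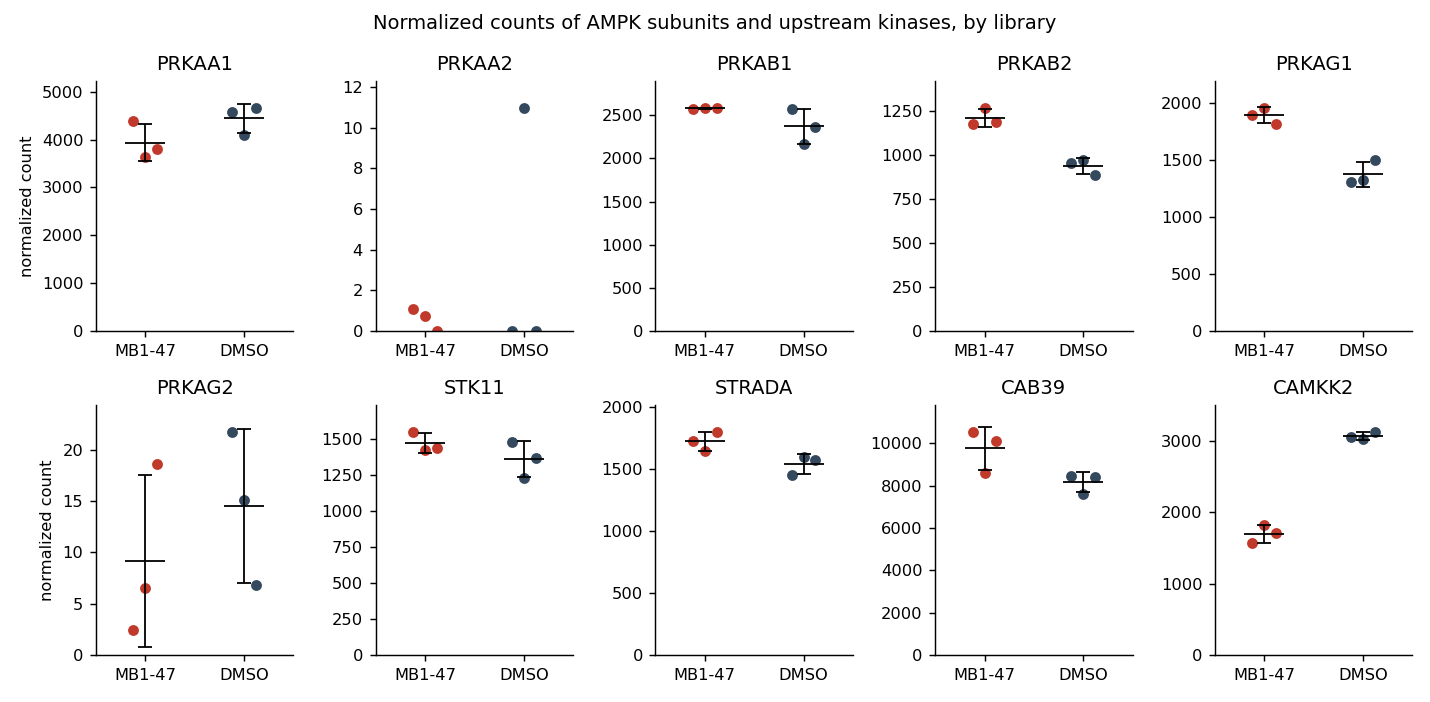
Normalized count of each of the 10 listed genes (vertical axes, each starting at 0) in the 3 MB1-47 libraries (red) and the 3 DMSO libraries (dark blue), with mean and SD bars for the 9 genes tested. CAMKK2 lies at 1820 or less in every MB1-47 library and at 3033 or more in every DMSO library, and the points of PRKAG1 and PRKAB2 lie higher with MB1-47.

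CAMKK2 showed the clearest difference among the members. Its normalized counts were 1565, 1820 and 1718 in MB1-47 libraries 1, 2 and 3, against 3054, 3033 and 3137 in DMSO libraries 1, 2 and 3. Every MB1-47 library was lower than every DMSO library, and the spread within each group was small beside the gap. CAMKK2 averaged 1701 ± 128 with MB1-47 and 3075 ± 54.8 with DMSO (SD, n = 3 each), a 1.81-fold lower level (-0.86 ± 0.10, limma adjusted p = 5.3e-05). The call held under all 15 alternative settings, where the change ranged from -0.91 to -0.73. In the whole table, 11.5% of tested genes changed by as much or more in the same direction. CAMKK2 lies on chromosome 12 from 121237691 to 121298308 in GENCODE 29 on GRCh38, on the reverse strand. Its values are little exposed to other genes: 2.18% of its 31-base words also occur in transcripts of another gene.

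The promoters of the 3 members that passed are shown, since these are the genes that moved and they moved in different directions. Each runs 5′ to 3′ from 250 bases before to 50 bases after the RefSeq start on GRCh38.p14, and capitals mark motif matches. For all 3 the RefSeq start lies inside the gene as GENCODE 29 draws it. CAMKK2 is chr12:121296660-121296959, PRKAG1 is chr12:49018727-49019026 and PRKAB2 is chr1:147172421-147172720, all on the reverse strand.
CAMKK2: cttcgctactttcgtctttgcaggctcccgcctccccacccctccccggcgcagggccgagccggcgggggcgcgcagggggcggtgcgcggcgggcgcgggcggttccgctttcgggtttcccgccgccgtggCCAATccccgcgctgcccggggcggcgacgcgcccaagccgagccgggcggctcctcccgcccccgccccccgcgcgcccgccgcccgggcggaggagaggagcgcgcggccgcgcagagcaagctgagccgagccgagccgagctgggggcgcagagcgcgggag
PRKAG1: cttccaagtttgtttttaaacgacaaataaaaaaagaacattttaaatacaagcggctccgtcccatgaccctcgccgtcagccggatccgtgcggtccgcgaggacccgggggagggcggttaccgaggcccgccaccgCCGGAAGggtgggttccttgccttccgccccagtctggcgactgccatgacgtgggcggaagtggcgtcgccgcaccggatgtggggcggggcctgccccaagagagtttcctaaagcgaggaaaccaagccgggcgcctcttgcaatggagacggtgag
PRKAB2: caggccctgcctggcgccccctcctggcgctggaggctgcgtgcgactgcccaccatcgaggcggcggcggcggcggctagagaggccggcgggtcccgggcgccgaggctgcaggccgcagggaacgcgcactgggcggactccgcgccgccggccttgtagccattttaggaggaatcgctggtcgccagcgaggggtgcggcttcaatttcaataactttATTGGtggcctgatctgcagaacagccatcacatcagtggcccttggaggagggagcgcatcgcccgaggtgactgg
Motifs were searched on both strands. The E-box was spelled CACGTG. The FOXO core was spelled TGTTTAC. The cAMP response element (CRE) was spelled TGACGTCA. The ATF4 motif was spelled TGATGNAA. The ETS site was spelled CCGGAAG, and the CCAAT box by the letters of its name. Each of the 3 windows holds 1 match, so none overlap. The capitals in the CAMKK2 window are a CCAAT box at position -116 from the start, and those in the PRKAB2 window are the same box read on the other strand, at position -27. The capitals in the PRKAG1 window are an ETS site at position -110. Of 35116 RefSeq promoters of this length, 34.6% hold a CCAAT box and 10.3% an ETS site, so these matches are common ones. The E-box, FOXO, CRE and ATF4 motifs occur in 7.26%, 3.42%, 1.85% and 3.62% of promoters, and their letters are not in the 3 windows. The CAMKK2 window is 81.3% G and C with 52 CpG pairs, against 61.7% with 29 pairs for PRKAG1 and 68.7% with 30 pairs for PRKAB2, and a median of 58.7% and 14 pairs over all promoters. Promoters were found for 9 of the 10 listed genes, all but STRADA. Among the other members, STK11 (chr19:1205528-1205827, 75.3% G and C) holds 3 CCAAT boxes and a FOXO core at position 3, PRKAB1 holds an ETS site, and 2 of the 5 PRKAG2 windows hold a CCAAT box or an ETS site.

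Of the catalytic subunits, PRKAA1 did not pass the test and PRKAA2 was too low to be tested. PRKAA1 had 4377, 3636 and 3801 normalized counts in MB1-47 libraries 1, 2 and 3. In DMSO libraries 1, 2 and 3 it had 4573, 4087 and 4662. The groups overlapped, since MB1-47 replicate 1 lay above DMSO replicate 2. The change was -0.18 ± 0.10 with a 95% interval from -0.39 to 0.04 (limma adjusted p = 0.19). PRKAA1 passed in none of the 15 alternative settings, where the change ran from -0.25 to -0.05. PRKAA2, the α subunit prominent in muscle and heart, was listed at 1.07, 0.745 and 0 in MB1-47 libraries and at 0, 10.97 and 0 in DMSO libraries. DMSO replicate 2 alone stood out, and PRKAA2 was not tested. The log2 ratio PRKAA2 to PRKAA1 averaged -11.3 ± 0.50 with MB1-47 and -10.9 ± 2.17 with DMSO (SD, n = 3 each; exact permutation p = 1.0, 2-sided). That ratio rests on a pseudocount of 1 added to values near 0, and its difference of -0.40 became 0.85 without DMSO replicate 2, and ran from -1.03 to -0.11 when any other library was left out.

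The β subunits hold the trimer together and carry the glycogen-binding domain. PRKAB1 had 2566, 2584 and 2581 normalized counts in MB1-47 libraries 1, 2 and 3, against 2575, 2169 and 2367 in DMSO libraries 1, 2 and 3. DMSO replicate 1 lay inside the MB1-47 range, and PRKAB1 did not pass (0.12 ± 0.10, 95% interval -0.09 to 0.34, limma adjusted p = 0.35), though with equal library totals it was called higher (0.25, limma adjusted p = 0.0434; range over 15 settings 0.0434 to 0.672). PRKAB2 had 1175, 1268 and 1185 in MB1-47 libraries 1, 2 and 3, against 955, 971 and 889 in DMSO libraries 1, 2 and 3. Every MB1-47 library was higher, and PRKAB2 rose 1.29-fold (0.37 ± 0.11, limma adjusted p = 0.0265). This call is a narrow one: it was lost without MB1-47 replicate 1, 2 or 3 or DMSO replicate 3, where the limma adjusted p ran from 0.0526 to 0.0855 and the change from 0.33 to 0.39. Within a library, the log2 ratio of PRKAB2 to PRKAB1 averaged -1.09 ± 0.06 with MB1-47 and -1.33 ± 0.15 with DMSO (SD, n = 3 each). The ratio was higher in every MB1-47 library than in every DMSO library, with an exact permutation p of 0.1, the lowest that 3 against 3 can give. The 2 genes lie apart, PRKAB1 on chromosome 12 from 119667753 to 119681630 and PRKAB2 on chromosome 1 from 147155106 to 147172550.

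Among the γ subunits, which bind AMP, ADP and ATP, PRKAG1 rose. It had 1897, 1958 and 1819 normalized counts in MB1-47 libraries 1, 2 and 3, against 1305, 1322 and 1503 in DMSO libraries 1, 2 and 3. The lowest MB1-47 library lay well above the highest DMSO library. PRKAG1 averaged 1891 ± 69.7 with MB1-47 and 1377 ± 110 with DMSO (SD, n = 3 each), a 1.38-fold rise (0.46 ± 0.11, limma adjusted p = 0.00564) that held in all 15 alternative settings, with changes from 0.42 to 0.59. A rise at least this large was seen in 24.2% of all genes tested. PRKAG1 lies on chromosome 12 from 49002274 to 49018825 and its exons overlap those of DDN-AS1. In all, 12.2% of its 31-base words occur in other genes, with DDN-AS1 sharing more of them than any other gene. The labels call the libraries strand-specific, while the strand setting of the quantification is not given in the sources used here, so reads of the overlapping transcript may enter its value. PRKAG2, the γ form linked to inherited heart muscle disease, stood at 2.42, 6.56 and 18.6 normalized counts in MB1-47 libraries and 21.8, 15.1 and 6.79 in DMSO libraries. Its groups overlapped widely and the interval of its change, from -2.93 to 1.26, allows a large change either way. Exons of PRKAG2 overlap those of PRKAG2-AS1. The log2 ratio PRKAG2 to PRKAG1 was -7.89 ± 1.29 with MB1-47 and -6.60 ± 0.90 with DMSO (SD, n = 3 each; exact permutation p = 0.2). The difference of -1.29 became -0.68 without MB1-47 replicate 1 and -1.97 without MB1-47 replicate 3.

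**Figure D2:**
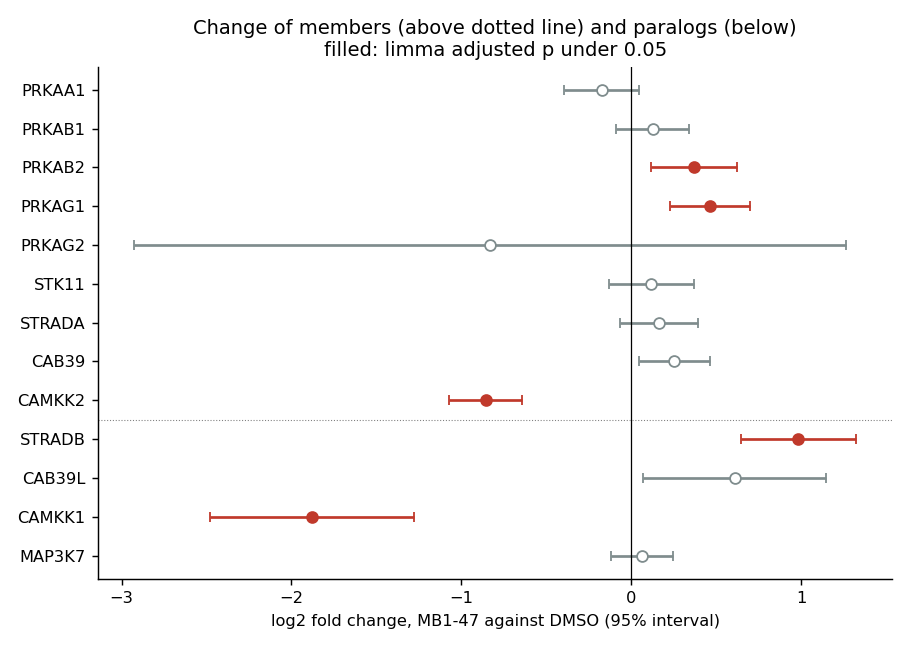
Log2 fold change of MB1-47 against DMSO (horizontal axis) with the 95% interval for the 9 tested members and, below the dotted line, 4 related genes; filled points have a limma adjusted p under 0.05. CAMKK2 and its paralog CAMKK1 lie to the left of 0, and PRKAG1, PRKAB2 and STRADB to the right.

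None of the 3 genes of the LKB1 complex passed, although each had a positive change. STK11, the kinase itself and a tumour suppressor, had 1553, 1426 and 1437 normalized counts in MB1-47 libraries 1, 2 and 3, against 1481, 1228 and 1372 in DMSO libraries 1, 2 and 3. DMSO replicate 1 lay above MB1-47 replicates 2 and 3, and the change was 0.12 ± 0.11 (95% interval -0.13 to 0.37, limma adjusted p = 0.46). STRADA, the pseudokinase that holds LKB1 in its active shape, had 1721, 1641 and 1801 in MB1-47 libraries, against 1449, 1593 and 1574 in DMSO libraries. Its groups did not overlap, but the gap was small beside the spread (0.16 ± 0.10, limma adjusted p = 0.25), and with equal library totals it was called higher (0.29, limma adjusted p = 0.0441; range over 15 settings 0.0441 to 0.468). CAB39, the MO25 scaffold that completes the complex, had 10560, 8617 and 10111 normalized counts in MB1-47 libraries 1, 2 and 3, against 8470, 7628 and 8414 in DMSO libraries 1, 2 and 3. MB1-47 replicate 2 lay only just above the highest DMSO library. CAB39 missed the threshold by little (0.25 ± 0.09, limma adjusted p = 0.0547). Over all 15 alternative settings its limma adjusted p ranged from 0.00317 to 0.189, and it passed in 6 of them. Those were the filter at a mean of 50, the trimmed mean of M values, quantile normalization, equal totals, the block and the fit without MB1-47 replicate 2 (0.34, limma adjusted p = 0.0114). STK11 lies on chromosome 19 from 1177558 to 1228435, STRADA on chromosome 17 from 63682336 to 63741986 and CAB39 on chromosome 2 from 230712845 to 230821075. STRADA shares 17.9% of its 31-base words with other genes, against 3.13% for STK11 and 0.148% for CAB39, so its level is the least certain of the 3. Exons of STRADA overlap those of AC046185.1, and exons of STK11 overlap those of CBARP. The part of reads from these overlapping genes in the values was not tested.

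The balance between genes was then read within each library, where the scaling of the library cancels. CAMKK2 relative to STK11, the 2 kinases upstream of AMPK, stood at log2 ratios of 0.01, 0.35 and 0.26 in MB1-47 libraries 1, 2 and 3, against 1.04, 1.30 and 1.19 in DMSO libraries 1, 2 and 3. The difference of -0.97 kept its sign when any 1 library was left out, from -1.05 to -0.88. PRKAG1 relative to PRKAA1 averaged -1.05 ± 0.16 with MB1-47 and -1.69 ± 0.10 with DMSO, a difference of 0.64. PRKAB2 relative to PRKAA1 averaged -1.70 ± 0.19 with MB1-47 and -2.24 ± 0.16 with DMSO, a difference of 0.54 (SD, n = 3 each for both). In each of these 3 ratios the groups did not overlap and the exact permutation p was 0.1, the lowest that 3 against 3 can give. PRKAG1 to PRKAA1, PRKAB2 to PRKAA1, STRADB to STRADA and CAMKK1 to CAMKK2 were the 4 ratios added after the values were seen. Each added ratio holds a gene already called, so its separation adds no separate support. Over the 8 ratios compared, the lowest Benjamini-Hochberg adjusted exact p was 0.133, so none could pass in this design.

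**Figure D3:**
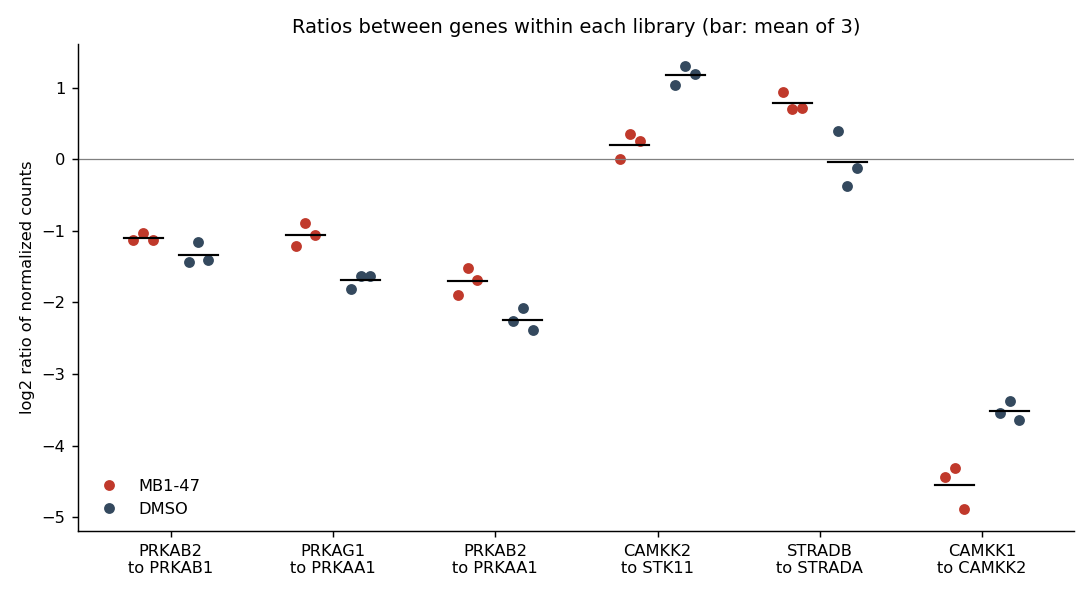
Log2 ratio of normalized counts between pairs of genes (vertical axis) in each MB1-47 library (red, left of each pair) and each DMSO library (dark blue, right), with a bar at the mean of 3. The planned ratios PRKAA2 to PRKAA1 and PRKAG2 to PRKAG1, whose groups overlapped, are not drawn. PRKAG1 to PRKAA1, PRKAB2 to PRKAA1, STRADB to STRADA and CAMKK1 to CAMKK2 were added after the values were seen. CAMKK2 relative to STK11 lies at 0.35 or less in MB1-47 libraries and at 1.04 or more in DMSO libraries, while both ratios to PRKAA1 lie higher with MB1-47.

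Levels of different genes were compared per kb of the longest annotated transcript, and then per kb of all exons merged. In MB1-47 libraries the order was CAB39 (2552 ± 266 normalized counts per kb), PRKAG1 (1113 ± 41.0), PRKAA1 (774 ± 76.5), PRKAB1 (641 ± 2.37), STRADA (467 ± 21.7), STK11 (414 ± 19.7), CAMKK2 (304 ± 22.9), PRKAB2 (223 ± 9.36) and PRKAG2 (2.78 ± 2.54; SD, n = 3 each). The ranges of neighbours in that order did not overlap. In DMSO libraries PRKAA1 (873 ± 60.8) and PRKAG1 (810 ± 64.7) overlapped, as did PRKAB1 (590 ± 50.5) and CAMKK2 (549 ± 9.79), and STRADA (418 ± 21.2) and STK11 (383 ± 35.7; SD, n = 3 each). CAMKK2 thus had rank 7 of 9 with MB1-47 and rank 5 with DMSO. The order depends on the transcript length taken: per kb of all exons merged, PRKAG1 came after PRKAA1 in both groups (452 and 600 with MB1-47), and CAMKK2 had rank 5 with MB1-47 and rank 3 with DMSO. CAB39 was the highest and PRKAG2 the lowest in both groups with either length.

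**Figure D4:**
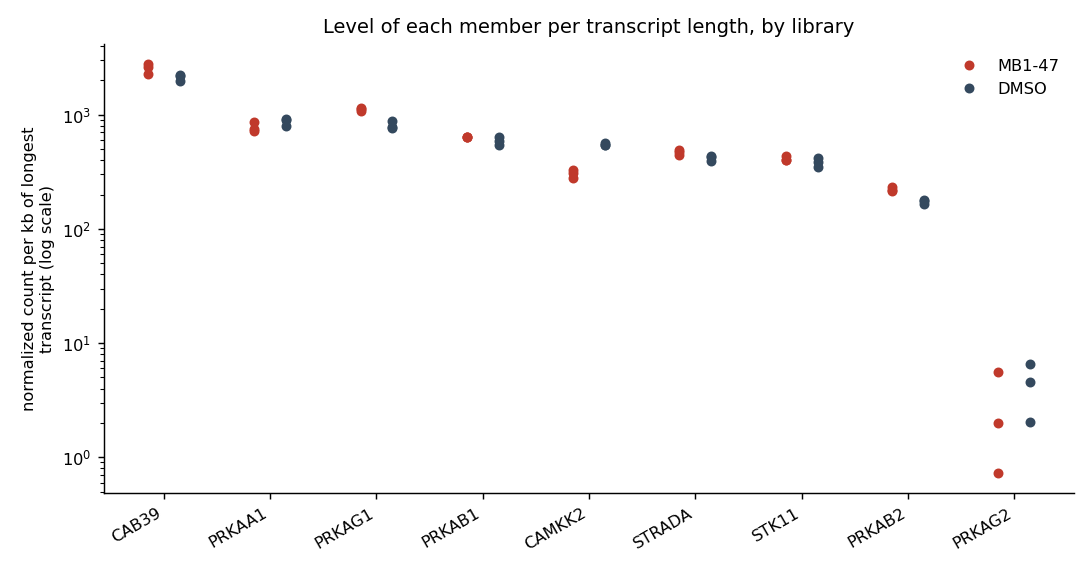
Normalized count per kb of the longest transcript (vertical axis, log scale) for the 9 tested members in each MB1-47 library (red, left) and each DMSO library (dark blue, right), ordered by the DMSO mean. CAB39 is highest in both groups, PRKAG2 is lowest, and CAMKK2 lies below STRADA and STK11 with MB1-47.

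The close relatives of these genes were given next, as all members of a fixed list. CAMKK1, the other CaM kinase kinase, had 71.2, 90.9 and 56.9 normalized counts in MB1-47 libraries 1, 2 and 3, against 261, 290 and 249 in DMSO libraries 1, 2 and 3. It fell further than CAMKK2 (-1.88 ± 0.27, limma adjusted p = 0.000272). The log2 ratio of CAMKK1 to CAMKK2 changed by -1.02 on average with MB1-47, with no overlap between groups (exact permutation p = 0.1). STRADB, the second STRAD pseudokinase, had 3309, 2669 and 2974 in MB1-47 libraries, against 1905, 1227 and 1455 in DMSO libraries. It rose 1.98-fold (0.98 ± 0.15, limma adjusted p = 0.000479), and the log2 ratio of STRADB to STRADA averaged 0.79 ± 0.13 with MB1-47 and -0.03 ± 0.39 with DMSO (SD, n = 3 each; exact permutation p = 0.1). STRADB shares 29.8% of its 31-base words with other genes, among them the pseudogene STRADBP1, and its exons overlap those of TRAK2, which changed by 1.51 (limma adjusted p = 1.6e-06), and the part of TRAK2 reads in the STRADB value was not tested. CAB39L, the second MO25 scaffold, had 395, 422 and 290 in MB1-47 libraries, against 182, 309 and 242 in DMSO libraries. Its groups overlapped and it did not pass (0.61 ± 0.24, limma adjusted p = 0.0724), but it passed without MB1-47 replicate 3 (0.77, limma adjusted p = 0.0488), without DMSO replicate 2 (0.79, limma adjusted p = 0.0386) and with equal totals (range over 15 settings 0.0386 to 0.211). MAP3K7, the TAK1 kinase proposed as a further AMPK kinase, stood at 5113 ± 179 with MB1-47 and 4892 ± 261 with DMSO (SD, n = 3 each; 0.06 ± 0.08, 95% interval -0.12 to 0.25, limma adjusted p = 0.58). PRKAG3, the γ form of skeletal muscle, was not analysed here.

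Calmodulin and the CaM kinases, which sit on either side of CAMKK2, moved in different directions. Of 7 listed genes 5 were tested, with 1 higher, 3 lower and 1 short of the threshold, and a median change of -0.35, against 18.3% of all genes higher and 19.8% lower. CALM3, which encodes calmodulin, averaged 6515 ± 700 with MB1-47 and 10362 ± 428 with DMSO (SD, n = 3 each; -0.67 ± 0.09, limma adjusted p = 0.000193). CALM2 changed by -0.35 ± 0.08 (limma adjusted p = 0.00771), with no overlap between groups. This call was lost with quantile normalization and without the intensity trend (limma adjusted p over 15 settings 0.0028 to 0.0559). CAMK4, a lymphocyte kinase that CaM kinase kinases phosphorylate, went the other way, at 2778, 2784 and 2625 normalized counts in MB1-47 libraries 1, 2 and 3, against 1619, 1281 and 1290 in DMSO libraries 1, 2 and 3. It rose 1.96-fold (0.97 ± 0.12, limma adjusted p = 7.1e-05).

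Among genes that regulate AMPK or LKB1, 8 were higher and 5 were lower of the 16 tested from 17 listed. The other 3 missed the threshold, and the median change was 0.29. Over all genes tested, 18.3% were higher and 19.8% lower. The list joins activators and inhibitors, so its count has no single direction in terms of AMPK. Sestrins, stress proteins that bind AMPK, were higher: SESN2 averaged 2160 ± 210 with MB1-47 and 901 ± 82.7 with DMSO (SD, n = 3 each; 1.26 ± 0.12, limma adjusted p = 1.7e-05), and SESN1 averaged 921 ± 78.5 with MB1-47 and 534 ± 38.5 with DMSO (0.78 ± 0.14, limma adjusted p = 0.00106). SESN3, a low gene picked out after its values were seen, had 28.5, 36.7 and 59.4 normalized counts in MB1-47 libraries, against 0, 1.85 and 1.87 in DMSO libraries. It counts among the 8 higher regulators, and only its MB1-47 values brought its mean to at least 10. With the filter at a mean of 50, 7 regulators were higher. The folliculin complex, which binds AMPK through FNIP proteins, was also higher. FNIP1 had 2689, 2304 and 2440 in MB1-47 libraries, against 1097, 1065 and 1039 in DMSO libraries (1.21 ± 0.11, limma adjusted p = 8.3e-06), and FLCN rose 2.03-fold (1.02 ± 0.18, limma adjusted p = 0.00102). FNIP2, also picked out after its values were seen, was low and did not pass, at 19.2 ± 10.5 with MB1-47 and 25.5 ± 17.7 with DMSO (SD, n = 3 each).

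The enzymes that remove the activating phosphate from AMPK or act on its stability went both ways. Of the genes that follow, all but CDC37 were chosen after their values were seen. PPM1A and PPM1B, phosphatases of the PP2C family, rose by 0.57 ± 0.09 and 0.41 ± 0.10 on the log2 scale, and PPP2CA, the catalytic subunit of PP2A, changed by -0.54 ± 0.10. USP10, which removes ubiquitin from AMPK α subunits, and UBE2O, a ubiquitin ligase that acts on the α subunit encoded by PRKAA2, changed by -0.63 ± 0.09 and -0.57 ± 0.13. CDC37, a co-chaperone that stabilises LKB1 together with HSP90, had 442, 1012 and 886 normalized counts in MB1-47 libraries 1, 2 and 3, against 1419, 1517 and 1750 in DMSO libraries 1, 2 and 3. It fell 2.12-fold (-1.08 ± 0.26, limma adjusted p = 0.00639), by less without MB1-47 replicate 1 (-0.72), and the call was lost without the intensity trend (limma adjusted p = 0.0601; range over 15 settings 0.00212 to 0.0601).

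Among kinases other than AMPK that LKB1 activates, MARK4 was higher and SIK1 was lower. Of 12 listed, 8 were tested and 6 did not pass, and the median change was 0.11. That is 2 of 8 called, against 38.1% of all genes. SIK1, a salt-inducible kinase that responds to cAMP, had 138, 239 and 311 normalized counts in MB1-47 libraries, against 750, 706 and 831 in DMSO libraries (-1.80 ± 0.26, limma adjusted p = 0.000294). MARK4, a microtubule affinity kinase, averaged 1018 ± 87.4 with MB1-47 and 515 ± 90.9 with DMSO (SD, n = 3 each; 0.99 ± 0.16, limma adjusted p = 0.000632). The groups of these 2 genes did not overlap.

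Transcripts of AMPK substrates did not share a direction. All 27 listed were tested, 9 were higher, 5 were lower and 13 missed the threshold, and the median change was -0.10. Over all genes, 18.3% were higher and 19.8% lower. The largest rises among them were those of HDAC5, a class IIa histone deacetylase, which averaged 291 ± 35.5 with MB1-47 and 29.2 ± 9.14 with DMSO (SD, n = 3 each), and of GFPT1, the first enzyme of the hexosamine pathway, which rose 2.56-fold to 13014 ± 952 with MB1-47, against 5080 ± 270 with DMSO. The autophagy substrates PIK3C3 and ATG9A rose by 0.75 ± 0.14 and 0.77 ± 0.14 on the log2 scale (limma adjusted p = 0.00139 and 0.00151). ACACA, the classic AMPK substrate of fatty acid synthesis, was lower and averaged 2908 ± 344 with MB1-47 and 4369 ± 391 with DMSO (SD, n = 3 each; -0.59 ± 0.11). Both substrates through which AMPK restrains mTORC1 were called, TSC2 higher (0.40 ± 0.11, limma adjusted p = 0.0167, lost without MB1-47 replicate 2, without DMSO replicate 3 and without the trend, with a range of 0.00685 to 0.0646) and RPTOR lower (-0.62 ± 0.12, limma adjusted p = 0.00223). The autophagy kinase ULK1 was lower by a small amount (-0.33 ± 0.11, limma adjusted p = 0.0383). That call was lost in 8 of 15 alternative settings, among them those without MB1-47 replicate 1 or 3 or DMSO replicate 2 or 3 (range 0.0172 to 0.226). ACACA, TSC2, RPTOR and ULK1 were chosen after their values were seen. Without DMSO replicate 3 the count of substrates higher was 4 in place of 9.

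**Figure D5:**
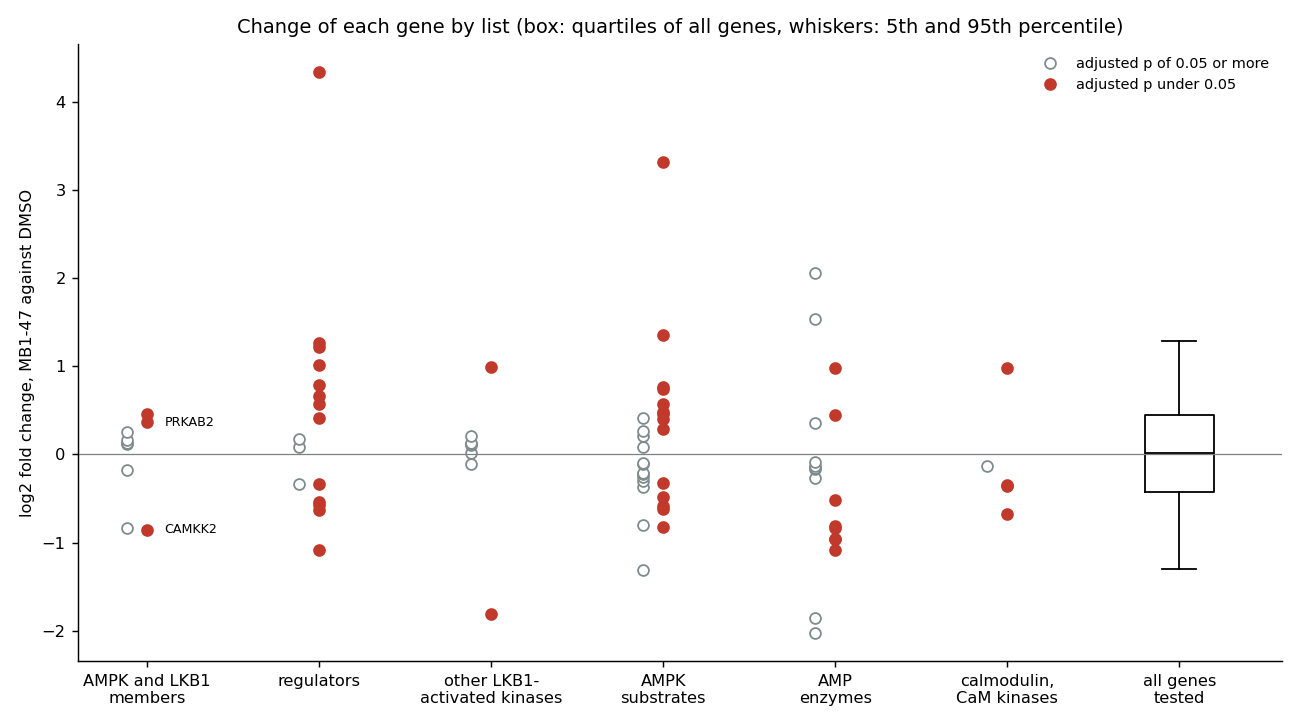
Log2 fold change of MB1-47 against DMSO (vertical axis) of each tested gene in the member list and 5 pathway lists, filled where the limma adjusted p is under 0.05, beside a box of all 13465 genes with whiskers at the 5th and 95th percentiles. The members range from -0.86 to 0.46, and called genes stand on both sides of 0 in every list.

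Among enzymes that make or use AMP, 2 were higher and 6 were lower of the 18 tested from 21 listed. The other 10 missed the threshold, and the median change was -0.22. The 8 of 18 called stand near the 38.1% of all genes. By direction, 18.3% of all genes were higher and 19.8% lower, so this list held relatively more lower and fewer higher. That difference was not tested. Those lower included ADSL, the purine enzyme that releases AMP (-0.96 ± 0.09, limma adjusted p = 2e-05), APRT, which salvages adenine (-0.96 ± 0.21, limma adjusted p = 0.00345), and ADK, which phosphorylates adenosine (-0.84 ± 0.10, limma adjusted p = 6.9e-05). AK9, a nucleotide kinase, rose to 294 ± 56.6 with MB1-47, against 149 ± 30.9 with DMSO (SD, n = 3 each; 0.98 ± 0.24, limma adjusted p = 0.0089).

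The genes most like 3 of the members over the 6 libraries were listed by Pearson's r of log2 values, as a description. For CAMKK2 they were ALDH18A1, NDUFAF8 and TPI1, at r of 0.9998, 0.9997 and 0.9995, and all 3 were lower with MB1-47 (-1.05, -1.83 and -1.53). A correlation of at least 0.9 with CAMKK2 was reached by 1950 of 10239 genes with a mean of at least 100, against 87 for PRKAA1 and 92 for STK11. The 6 points share the treatment, so any gene with a clean fall resembles CAMKK2. The genes nearest to PRKAA1 were L3HYPDH (r = 0.99), TTC19 (r = 0.97) and AP4M1 (r = 0.97), and those nearest to STK11 were UPF3A, SPOP and RPS14 (r = 0.99 each). Of these 6, AP4M1 alone passed the test (-0.58 ± 0.19, limma adjusted p = 0.0294), and its call was lost without MB1-47 replicate 2 or 3, without DMSO replicate 1 or 3, with equal totals and without the trend, where the limma adjusted p ran from 0.0629 to 0.112.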

How the data were processed

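RNA of 6 DND41 libraries, 3 per group, was measured by strand-specific RNA-seq. The authors deposited 1 table of normalized counts per gene, which are not whole and were treated as a signal with a floor at 0. The submitters' processing notes name kallisto 0.44.0, DESeq and GRCh38.p13; the sources used here do not give the annotation, the summing to genes or any filter. Of the deposited values under 20, from 59.0% to 64.4% per library fell within 0.1 of a multiple of 1 best step. Whole reads could therefore not be recovered, and no count model or counting interval was used.

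Genes with a mean of at least 10 were tested by limma 3.58.1 (R 4.3.3) on log2(value + 1) with a trend of variance on intensity, and adjustment ran over all 13465 genes. Intervals cover 95%. Ratios were tested by exact permutation of the group labels, 2-sided. The fit of this comparison was tested on simulated data: of 200 genes altered among 13465, 53.7%, 74.6% and 92.4% of those altered by 1.5, 2 and 4 times were recovered, and 5.77% of calls were false. The altered genes all had a mean of at least 50. In the real data 38.1% of genes passed, a far larger share, so these rates need not hold there. Within groups, libraries correlated between 0.955 and 0.968, and no value above 0 was shared by a pair of libraries.

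The members and lists were chosen with earlier results of these data known. Named were all members, the paralog list, and up to 5 called genes per other list with a mean of at least 50 and the largest change, plus the 3 most similar genes with a mean of at least 100 for PRKAA1, STK11 and CAMKK2; genes added after their values were seen are marked. Values of some listed genes are not reported here. Positions, transcript lengths and 31-base words come from GENCODE 29, and promoters from RefSeq on GRCh38.p14. The alternatives tried were pseudocounts of 0.5 and 5, a filter at a mean of 50 or none, the trimmed mean of M values, quantile normalization, equal library totals, no trend, a replicate block and each library left out. Figures were drawn with matplotlib 3.10.9.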

Additional observations from a re-analysis of the deposited data

How the results depend on the processing

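The fall of CAMKK2 and the rise of PRKAG1 held in all 15 alternative settings, and no member's tested change turned in sign. The count of members higher was 5 with equal library totals in place of 2, and it ran from 1 to 2 when any 1 library was left out. The member lower, CAMKK2, was 1 in every setting. Among the lists, other kinases activated by LKB1 had 2 higher with equal totals in place of 1. Without the intensity trend, AMPK substrates had 4 higher in place of 9, regulators 3 lower in place of 5, and the calmodulin list 1 lower in place of 3, which was also 1 with quantile normalization. Substrates higher ran from 4 to 9 when 1 library was left out. The cause of these shifts was not tested. Deviations of same-numbered libraries correlated only at 0.02, 0.06 and 0.01, and 3 of 6 libraries correlated best with their own number. With 3 libraries per group, this check cannot exclude pairing by replicate number. With the replicate block, the count of all genes higher was 2531 in place of 2458 and that of all genes lower was 2715 in place of 2667, 3 members were higher in place of 2, and CAB39 passed (limma adjusted p = 0.0191). Count-based tests were planned only for recovered whole reads and were not run. Low genes such as PRKAG2 and PRKAA2 are limited by their values near 0.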
